A study of Homo sapiens with 12 samples.

Results

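The insulin-like growth factor (IGF) family was followed in Ewing sarcoma xenografts, tumours grown in an animal from the human cell line SK-ES1, with and without knock-down of RING1B. The 10 genes described here are the ligands IGF1 and IGF2, the receptors IGF1R, INSR and IGF2R, the receptor substrates IRS1 and IRS2, and the binding proteins IGFBP2, IGFBP4 and IGFBP5. They were taken by name from a count table of 57169 genes by a rule that uses no measured value, although the family was chosen with earlier results of these data known. A total of 12 libraries was measured, 6 from control tumours and 6 from tumours with RING1B knocked down, all of mRNA prepared with a stranded polyadenylated RNA kit. The controls carry the label wild-type, and the construct used for silencing, any construct in the controls, the host animal and the time of sampling are not named. All tumours came from 1 cell line, and the titles carry 8 numbers, of which 4 stand on a pair of libraries of the same group, with the letter D or E. Letter D stands on controls 1 and 4 and on knock-downs 1, 2, 3 and 5, and letter E on the others. Letter and group are thus unbalanced, and a fit within a letter compares small groups of unequal size. Nothing states that the libraries of a group came from separate animals, so the p-values here measure only the spread between these libraries, which may be technical.

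IGF1 and IGF2 bind and activate IGF1R, a receptor tyrosine kinase, and IGF2 also activates one isoform of the insulin receptor INSR. The active receptors phosphorylate IRS1 and IRS2, scaffold proteins that recruit PI3 kinase and so switch on AKT and mTOR, while IGF2R takes up IGF2 from the cell surface for breakdown and does not signal as a kinase. Secreted binding proteins hold the ligands outside the cell and can limit or prolong their action. Ewing sarcoma cells are known for their reliance on IGF1R, and IGFBP3 is a known gene repressed by their fusion protein EWSR1-FLI1. RING1B, encoded by RNF2, is the ubiquitin ligase of Polycomb repressive complex 1, which marks histone H2A and is best known for silencing developmental genes.

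The 12 libraries held between 23859184 and 26678325 counts, and 3 counts, used here as the detection floor, equal 0.109 to 0.127 CPM (counts scaled to a common library size, here with TMM factors of 0.921 to 1.04). RNF2, the targeted gene, had 47.6 ± 8.44 CPM in the controls and 17.7 ± 4.56 CPM after knock-down (SD, n = 6 each), with no overlap between the groups. Its log2 fold change was -1.43 (SE 0.174), with an adjusted p of 0.00347 by edgeR's quasi-likelihood test with Benjamini-Hochberg adjustment over the 16519 genes tested. Of the 10 genes listed as Ewing sarcoma markers, 9 could be tested, and their summed level was 1255 to 1469 CPM in the controls and 1386 to 1576 CPM after knock-down. Of the 9, 2 were called by edgeR, where 0.297% of all tested genes were, and both were higher after knock-down. The list was chosen with earlier results of these data known, so this count is no test of the markers. CCK had a mean of 10.8 CPM in the controls and 51.9 CPM after knock-down, and NPY1R had 41.3 and 73.3 CPM. The remaining marker, CD99, was listed at 0 in all 12 libraries. How reads with several alignments were counted is not stated, so this 0 does not show that the transcript was absent. Knock-down 4 had the lowest median correlation with the other libraries (r = 0.955 over genes), followed by control 6 (0.966) and knock-down 5 (0.967). The log2 fold changes of IGF2, IGFBP2 and IGFBP5 and the members' median are given with and without knock-down 4.

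The start regions of the members differ in their content of CpG, the dinucleotide at which Polycomb complexes are known to gather when it is dense and unmethylated. RefSeq promoters (GRCh38.p14, 250 bases before to 50 bases after a start) were at hand for 9 of the 10 members. The CpG count of this 300-base window was 55 at IGF1R, 50 at IRS2, 47 at IRS1, 41 at IGF2R, 36 at INSR and 30 at IGFBP4, against a median of 14 over 35116 promoters. IGFBP5 had 9, the 3 starts of IGFBP2 had 8, 28 and 6, and the starts of IGF1 had 0 and 1. The sequences printed here are the 250 bases before the start, 5′ to 3′ on the gene's own strand, with every CpG in capitals. They show the CpG-poorest and the CpG-densest member, IGF1 (chr12:102481748-102481997, minus strand, 0 CpG) and IGF1R (chr15:98648289-98648538, plus strand, 48 CpG), and the neighbours IGFBP2 and IGFBP5, whose levels moved together. IGFBP2 is given at its first start (chr2:216632578-216632827, plus strand, 7 CpG) and at the next (chr2:216633170-216633419, plus strand, 22 CpG), and IGFBP5 at chr2:216695550-216695799 (minus strand, 8 CpG).
IGF1: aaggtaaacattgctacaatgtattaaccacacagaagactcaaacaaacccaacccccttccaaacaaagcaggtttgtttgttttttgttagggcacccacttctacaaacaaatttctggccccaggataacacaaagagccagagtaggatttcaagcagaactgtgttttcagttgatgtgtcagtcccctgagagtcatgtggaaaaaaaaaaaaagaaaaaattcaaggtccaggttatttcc
IGF1R: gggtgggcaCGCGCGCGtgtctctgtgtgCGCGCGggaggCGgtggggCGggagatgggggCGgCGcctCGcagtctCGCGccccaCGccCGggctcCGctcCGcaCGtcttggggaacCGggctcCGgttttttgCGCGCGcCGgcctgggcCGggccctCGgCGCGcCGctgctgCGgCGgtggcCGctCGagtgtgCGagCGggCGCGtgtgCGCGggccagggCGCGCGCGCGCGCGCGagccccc
IGFBP2, first start: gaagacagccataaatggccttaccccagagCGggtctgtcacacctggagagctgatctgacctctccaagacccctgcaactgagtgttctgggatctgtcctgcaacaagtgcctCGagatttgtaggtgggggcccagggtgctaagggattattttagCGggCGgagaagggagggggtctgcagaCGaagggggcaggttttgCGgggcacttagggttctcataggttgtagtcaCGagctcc
IGFBP2, next start: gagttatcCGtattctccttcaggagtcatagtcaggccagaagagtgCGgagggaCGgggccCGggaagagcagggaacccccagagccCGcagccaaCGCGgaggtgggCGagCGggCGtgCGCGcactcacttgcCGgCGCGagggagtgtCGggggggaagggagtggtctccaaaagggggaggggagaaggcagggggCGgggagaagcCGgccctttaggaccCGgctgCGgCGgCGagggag
IGFBP5: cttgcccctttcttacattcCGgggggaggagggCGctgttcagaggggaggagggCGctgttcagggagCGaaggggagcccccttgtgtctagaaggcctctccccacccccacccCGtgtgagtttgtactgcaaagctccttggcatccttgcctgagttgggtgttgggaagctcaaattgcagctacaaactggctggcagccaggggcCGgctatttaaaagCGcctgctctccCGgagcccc
The GGAA repeat to which EWSR1-FLI1 is known to bind was searched as GGAAGGAA on both strands. It stood in none of the members' windows and in 3.67% of all promoters of that length, which says only that these letters are not in these windows.

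None of the 10 members passed the test between knock-down and control. All 10 had enough counts to be tested, the edgeR adjusted p ran from 0.469 to 0.945, and 0 were called, where 49 of 16519 genes (0.297%) were called. At an unadjusted p under 0.05, 0 members stood beside 12.7% of all genes, and 0 members had groups that did not overlap beside 1.22% of all genes. DESeq2 called 0 members and 2.22% of all genes with an adjusted p from it, and limma-voom called 0 members and 0.339% of all genes. The members' log2 fold changes had a median of 0.11, against 0.01 over all tested genes, and 8 of 10 were above 0, against 52.4% of all genes. Without knock-down 4, 6 of 10 were above 0 and the median was 0.08. In bulk tumour RNA, fewer cells of a type and less RNA per cell cannot be told apart.

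**Figure D1:**
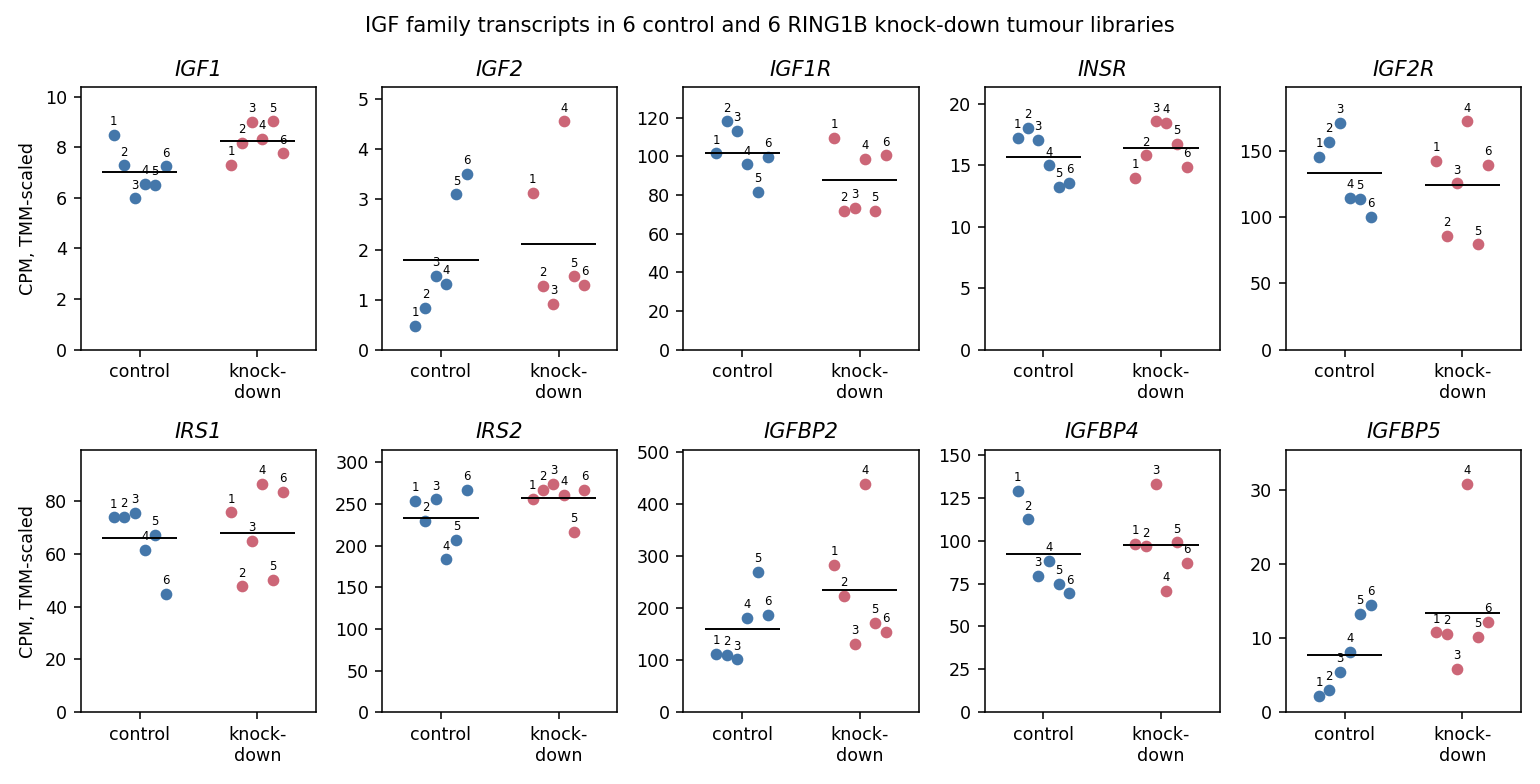
TMM-scaled CPM of each of the 10 members in the 6 control and 6 knock-down libraries, 1 point per library labelled with its replicate number, with a line at the group mean and each axis starting at 0. The groups overlap for every member, and knock-down 4 is the highest library for IGF2, IGFBP2 and IGFBP5, at 4.56, 438.4 and 30.8 CPM.

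The ligand IGF1, the main growth factor of the family after birth, was low and steady. Its lowest, median and highest control values were 5.98, 6.89 and 8.49 CPM, and after knock-down they were 7.32, 8.26 and 9.02 CPM. Every knock-down library lay above every control except control 1, which at 8.49 CPM made the groups overlap. The means were 7.01 ± 0.875 and 8.27 ± 0.673 CPM (SD, n = 6 each). The log2 fold change was 0.24 (SE 0.130, 95% interval -0.04 to 0.51, edgeR adjusted p = 0.469), an interval of 0.973-fold to 1.43-fold. IGF1 spread less between libraries than most genes of its level: its biological coefficient of variation was 18.0% where the trend gave 30.2%, a ratio at percentile 1.65 of the tested genes. The gene lies at chr12:102395874-102481744 on the minus strand (hg38), with 8122 exon bases. Of these, 6693 are shared with the antisense transcript HELLPAR, which had 64 to 153 counts, and without a stated strand setting of the counting the reads of the pair cannot be told apart.

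IGF2, the fetal growth factor of an imprinted locus, was the lowest member and among the most variable. It had 0.482, 1.40 and 3.52 CPM (lowest, median, highest) in the controls and 0.910, 1.38 and 4.56 CPM after knock-down. Controls 5 and 6 and knock-downs 1 and 4 stood above 3 CPM, the other 8 libraries were under 1.5 CPM, and the groups overlapped over most of their range. The raw counts behind these levels were 13 to 84 in the controls and 25 to 107 after knock-down. The log2 fold change was 0.24 (SE 0.490, 95% interval -0.81 to 1.28, edgeR adjusted p = 0.882), and without knock-down 4 it was -0.14. The row covers chr11:2129112-2158658 on the minus strand and joins 2 annotated genes of that name. It shares 1580 exon bases with INS-IGF2 and 456 with the antisense IGF2-AS, both at 0 counts in all libraries.

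IGF1R, the receptor kinase through which both ligands act, lies at chr15:98648539-98964530 on the plus strand. Its lowest, median and highest levels were 81.7, 100.6 and 118 CPM in the controls and 71.8, 86.1 and 109.4 CPM after knock-down. Knock-downs 2, 3 and 5 lay under all controls, while knock-downs 1, 4 and 6 lay among them. The means were 101.6 ± 12.9 and 87.7 ± 17.1 CPM (SD, n = 6 each), with a log2 fold change of -0.21 (SE 0.133, 95% interval -0.50 to 0.07, edgeR adjusted p = 0.526). INSR, the insulin receptor (chr19:7112255-7294034, minus strand), had 13.3, 16.0 and 18.1 CPM in the controls and 14.0, 16.3 and 18.6 CPM after knock-down, so that the groups covered nearly the same range. Its log2 fold change was 0.06 (SE 0.121, 95% interval -0.19 to 0.32, edgeR adjusted p = 0.867). IGF2R, the uptake receptor (chr6:159969099-160113507, plus strand), had 100.2, 129.9 and 170.9 CPM in the controls and 79.4, 132.5 and 172.1 CPM after knock-down. Knock-downs 2 and 5 were its lowest libraries, and knock-down 4 and control 3 its highest. Its log2 fold change was -0.11 (SE 0.189, 95% interval -0.51 to 0.30, edgeR adjusted p = 0.860).

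The substrates IRS1 and IRS2 couple the receptors to PI3 kinase. IRS1 (chr2:226731317-226799759, minus strand) had 44.7, 70.4 and 75.6 CPM in the controls and 47.7, 70.4 and 86.4 CPM after knock-down, with equal medians and overlapping groups. Between the groups its log2 fold change was 0.04 (SE 0.168, 95% interval -0.32 to 0.40, edgeR adjusted p = 0.945). IRS2, the related substrate (chr13:109752698-109786568, minus strand), had 183.4, 241.8 and 267.0 CPM in the controls and 216.9, 263.9 and 273.8 CPM after knock-down. All knock-down libraries but the fifth lay between 255.7 and 273.8 CPM. That stretch held 1 control, the sixth, and controls 3 and 1 lay just under it, at 255.6 and 253.9 CPM. The log2 fold change of IRS2 was 0.14 (SE 0.105, 95% interval -0.08 to 0.37, edgeR adjusted p = 0.598), the narrowest interval among the members.

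The binding proteins IGFBP2 and IGFBP5 had the largest fold changes and the widest spread for their level. IGFBP2, a secreted carrier common in fetal and tumour tissue, had 101.5, 147.0 and 269.5 CPM (lowest, median, highest) in the controls and 132.0, 198.0 and 438.4 CPM after knock-down. Controls 1, 2 and 3 were the lowest libraries of all, at 112.1, 109.7 and 101.5 CPM, while control 5 stood above every knock-down except the first and the fourth. The means were 160.2 ± 65.5 and 234.1 ± 114.0 CPM (SD, n = 6 each). The log2 fold change was 0.55 (SE 0.300, 95% interval -0.09 to 1.19, edgeR adjusted p = 0.469), an interval of 0.938-fold to 2.28-fold. Without knock-down 4 it was 0.27 (edgeR adjusted p = 0.719). Within letter D, which lacks knock-down 4, it was 0.45, and within letter E, whose only knock-downs are 4 and 6, it was 0.82. The coefficient of variation of IGFBP2 was 36.0% where the trend gave 17.8%, a ratio at percentile 98.8 of the tested genes.

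IGFBP5, a carrier that binds the extracellular matrix and is known from connective tissue and muscle, had 2.19, 6.82 and 14.5 CPM in the controls and 5.90, 10.7 and 30.8 CPM after knock-down. Controls 1 and 2 were the lowest libraries and knock-down 4 the highest, and the next knock-down, at 12.2 CPM, lay under controls 5 and 6. The means were 7.78 ± 5.22 and 13.4 ± 8.79 CPM (SD, n = 6 each). They gave a log2 fold change of 0.79 (SE 0.459, 95% interval -0.19 to 1.77, edgeR adjusted p = 0.497), an interval of 0.876-fold to 3.4-fold, and without knock-down 4 it was 0.36 (edgeR adjusted p = 0.766). Within letter D, which lacks knock-down 4, it was 0.83, and within letter E, whose only knock-downs are 4 and 6, it was 1.24. Its coefficient of variation was 54.3% where the trend gave 26.9%, at percentile 98.7. IGFBP4, a carrier that restrains IGF action until it is cut by the protease PAPPA (chr17:40443461-40457731, plus strand), had 69.3, 83.7 and 129.1 CPM in the controls and 70.9, 97.3 and 132.9 CPM after knock-down. Its groups covered nearly the same range, with a log2 fold change of 0.08 (SE 0.170, 95% interval -0.28 to 0.44, edgeR adjusted p = 0.885).

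**Figure D2:**
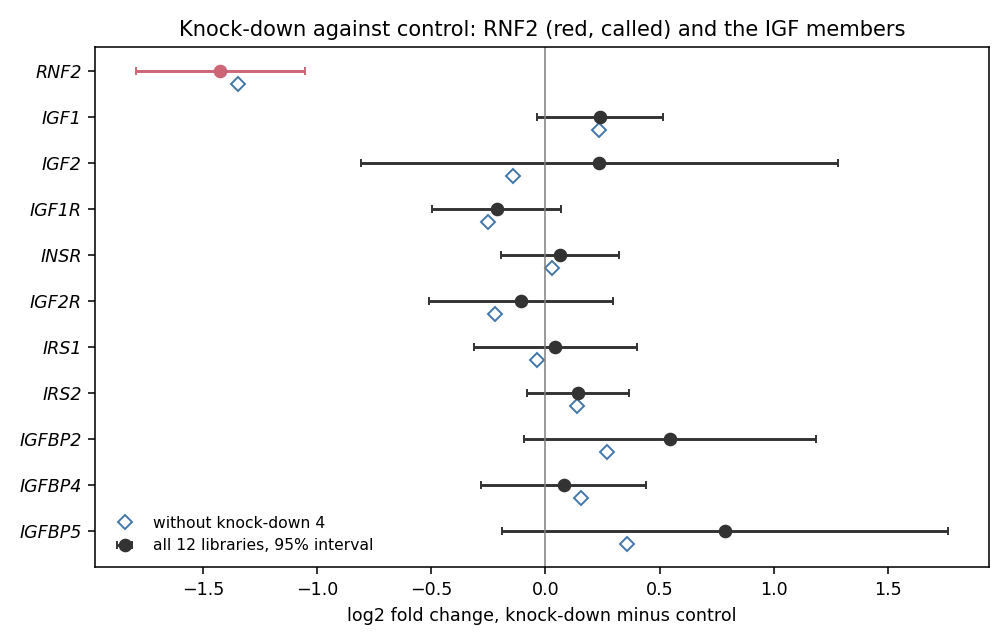
Log2 fold change of knock-down over control for RNF2 and the 10 members, with 95% intervals from edgeR over all 12 libraries (filled circles) and the value without knock-down 4 (open diamonds). Every member's interval includes 0, and leaving out knock-down 4 takes IGFBP5 from 0.79 to 0.36 and IGFBP2 from 0.55 to 0.27.

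Compared per exon length, the family spanned a wide range in the control tumours. IGFBP4 had 41.9 ± 10.7 CPM per kb, IGFBP2 33.6 ± 13.7 and IRS2 28.6 ± 3.99 CPM per kb (SD, n = 6 each), at percentiles 93.5, 91.6 and 89.9 of the tested genes. Below them came the receptors of both ligands and the other substrate, with IGF2R at 7.48 ± 1.57, IGF1R at 7.29 ± 0.925 and IRS1 at 6.64 ± 1.18 CPM per kb. INSR had 1.502 ± 0.196, IGFBP5 1.21 ± 0.810, IGF1 0.863 ± 0.108 and IGF2 0.233 ± 0.161 CPM per kb, the last at percentile 8.14. Neighbours in this order were separated without overlap of the 6 libraries at 3 steps, from IRS2 to IGF2R, from IRS1 to INSR and from IGF1 to IGF2, and the other neighbours overlapped. The transcripts of both ligands were thus under those of IGF1R per kb in every control library. After knock-down the order was led by IGFBP2 at 49.1 ± 23.9 and IGFBP4 at 44.3 ± 9.26 CPM per kb, which overlapped, and IGFBP5 at 2.08 ± 1.37 CPM per kb stood above INSR at 1.57 ± 0.180, again with overlap. The steps without overlap after knock-down were from IRS2 to IGF2R, from IGF1R to IGFBP5, from INSR to IGF1 and from IGF1 to IGF2.

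**Figure D3:**
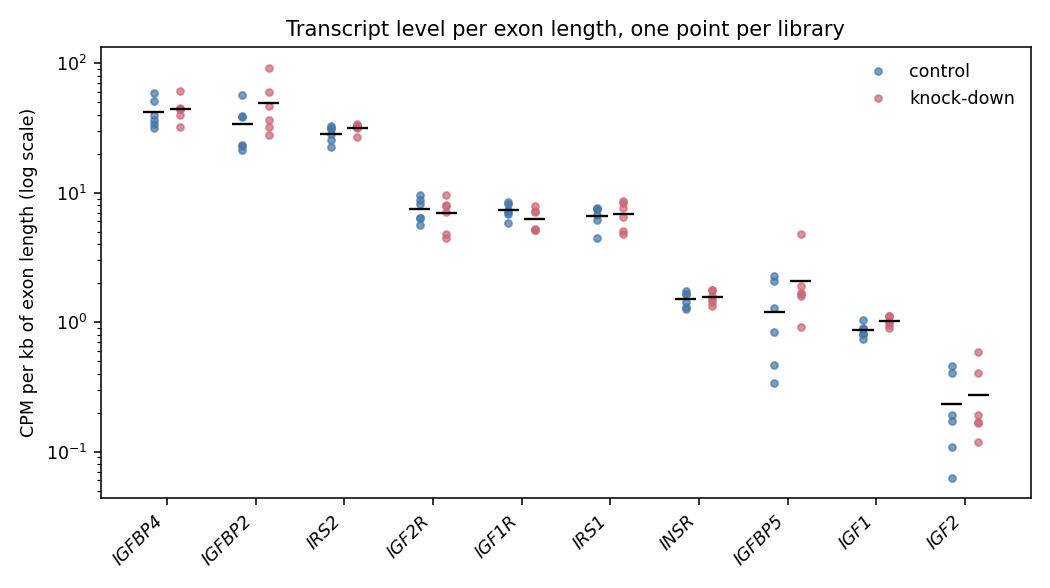
Transcript level in CPM per kb of exon length on a log scale, 1 point per library, for control (blue) and knock-down (red) libraries, with a line at each group mean and genes in the order of their control means. IGFBP4, IGFBP2 and IRS2 lie above 20 CPM per kb in every library, and IGF2 lies under 1 CPM per kb in every library.

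The members differed in how much they varied within a group. In the controls the coefficient of variation of the CPM values was 69.2% for IGF2, 67.1% for IGFBP5 and 40.9% for IGFBP2, and after knock-down it was 68.0%, 65.5% and 48.7%. IGF1 varied by 12.5% and 8.14%, and IRS2 by 14.0% and 7.99%. The highest control exceeded the lowest 7.30-fold for IGF2 and 6.64-fold for IGFBP5. The spread of IGF2, IGFBP2 and IGFBP5 was thus present in both groups.

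IGFBP2 and IGFBP5 are neighbours on chromosome 2, and their levels followed each other from library to library. IGFBP2 (chr2:216632828-216664436, plus strand) and IGFBP5 (chr2:216672105-216695525, minus strand) lie 7668 bases apart with their 3′ ends facing each other and no coding gene between them. Over the 12 libraries their log2 CPM had a Pearson r of 0.854 (permutation p = 0.00034, 0.0017 after Benjamini-Hochberg adjustment over 5 pairs) and a Spearman rho of 0.825 (permutation p = 0.0017, adjusted 0.0085), both two-sided. Without the libraries farthest from the median, control 3 and knock-down 4, r was 0.794, and without knock-down 4 alone it was 0.777. Within the controls it was 0.838 (exact permutation p = 0.0611, n = 6) and within the knock-downs 0.850 (exact permutation p = 0.0472, n = 6). It was 0.840 among the 6 libraries of letter D and 0.897 among the 6 of letter E. Over the means of the 8 title numbers it was 0.776 (permutation p = 0.0573), so the relation missed the threshold when libraries of the same number were counted once.

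The other 4 pairs tested, each of members that act together, did not pass. The ligand IGF1 and its receptor IGF1R had r = -0.525 (permutation p = 0.0781, adjusted 0.195) and rho = -0.420 (adjusted permutation p = 0.439). Without the libraries farthest from the median r was -0.285, so the size of this relation rested on those libraries. Within the controls r was 0.094 (exact permutation p = 0.911, n = 6) and within the knock-downs -0.803 (exact permutation p = 0.0833, n = 6), a difference that was not tested. IGF2 with IGF2R had r = -0.02, IGF1R with INSR r = -0.01 and IRS1 with IRS2 r = 0.11, each with an adjusted permutation p of 0.970. IGF1R and INSR had r = 0.839 within the controls (exact permutation p = 0.0278, n = 6) and r = -0.478 within the knock-downs (exact permutation p = 0.275, n = 6), and the difference between these was not tested. Among all 45 pairs of members, described with no test and named after their values were seen, the highest r was 0.898 for IGF2R with IRS1. IGF2 had r = 0.873 with IGFBP5 and 0.813 with IGFBP2. IGFBP4 ran the other way, with r = -0.824 to IGF2 and -0.755 to IGFBP5. These points share their libraries, so depth and composition of a library enter both members of a pair.

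**Figure D4:**
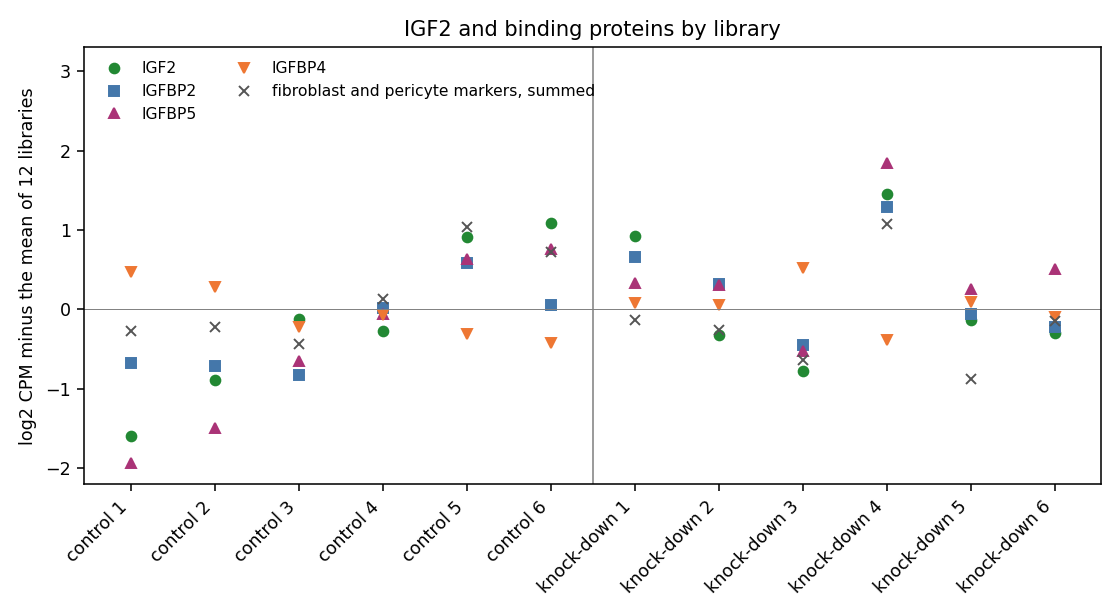
Log2 CPM of IGF2, IGFBP2, IGFBP5 and IGFBP4 and of the summed fibroblast and pericyte markers in each library, minus the mean over the 12 libraries. Knock-down 4 and controls 5 and 6 are high for IGF2, IGFBP5 and the markers and low for IGFBP4, and controls 1 and 2 are low for IGF2, IGFBP2 and IGFBP5.

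The summed level of fibroblast and pericyte markers, of cells that can lie in a tumour beside the cancer cells, was high in the same libraries as some of these members. Of 13 such markers, led by COL3A1, 12 could be tested, 0 were called (0.297% of all genes were), and none was at 0 in all libraries. Their summed level was 594.0 to 1654 CPM in the controls, highest in control 5 and next in control 6 at 1329 CPM. After knock-down it was 440.2 to 1699 CPM, highest in knock-down 4 and at most 732.9 CPM in the others. COL1A1, COL1A2 and COL3A1 made up most of the sum, with 658.3, 331.0 and 446.0 CPM in knock-down 4. THY1, POSTN, ACTA2 and TAGLN had their highest level of the 12 libraries there, at 25.5, 32.5, 50.2 and 32.3 CPM. Other markers of the list lay under their knock-down mean there. LUM had 6.35 CPM in knock-down 4 against a knock-down mean of 25.1 CPM, FAP 7.37 against 17.1, DCN 37.8 against 59.2 and PDGFRB 63.2 against 69.4 CPM. Control 5, control 6 and knock-down 4 were also among the highest libraries for IGF2 and IGFBP5. An alternative fit in edgeR took the mean log2 CPM of the 13 markers as a covariate, in which each marker weighs alike, unlike in the sum. There the log2 fold change of IGFBP2 was 0.65 (edgeR adjusted p = 0.0266), and that of IGFBP5 was 0.96 (edgeR adjusted p = 0.132). IGFBP2 was the 1 member called under that fit, in which 293 genes were called in all, and it was called under none of the other 27 alternatives. With 1 surrogate variable as the covariate the values were lower, at 0.17 for IGFBP2 (edgeR adjusted p = 0.846) and 0.37 for IGFBP5 (edgeR adjusted p = 0.687). Without control 6, knock-down 4 and knock-down 5 they were 0.35 and 0.62. Macrophage markers summed to 6.41 to 21.1 CPM in the controls and 6.19 to 25.9 CPM after knock-down, with CD68, CD14, ITGAM, C1QA and C1QC under 1 CPM throughout. Endothelial markers summed to 17.9 to 29.4 and 17.4 to 30.9 CPM, with PECAM1, TEK, ROBO4 and ERG under 1 CPM. Adipocyte markers summed to 0.891 to 2.75 and 1.09 to 2.94 CPM. All of these sums were also highest in control 5 among the controls and in knock-down 4 among the knock-downs. Skeletal muscle markers, at 13.2 to 39.3 and 7.95 to 24.98 CPM, were highest in control 2 and knock-down 6. Of these lists, 6 of 12 macrophage, 5 of 10 endothelial, 2 of 6 adipocyte and 3 of 8 muscle markers could be tested. None was called, beside 0.297% of all genes, which with so few genes tested says little about the groups. Whether the marker transcripts came from host or tumour cells was not tested.

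Of 54 other genes of the pathway, all in the table, 47 could be tested and 1 was called by edgeR, against 0.297% of all genes. Their log2 fold changes had a median of -0.03 and 21 of 47 (44.7%) were above 0. Without knock-down 4 the median was -0.06 and 16 of 47 were above 0. DESeq2 called 3 of them, DEPTOR, PIK3CB and GRB10, beside 2.22% of all genes with an adjusted p from it. Limma-voom called 1, beside 0.339% of all genes. DEPTOR, an inhibitor that binds mTOR, rose. Its lowest, median and highest levels were 5.34, 5.59 and 6.24 CPM in the controls and 7.92, 9.92 and 14.95 CPM after knock-down, so every knock-down library lay above every control. The log2 fold change was 0.92 (SE 0.156, 95% interval 0.58 to 1.25, edgeR adjusted p = 0.0228). The call was lost when some single libraries were left out. The edgeR adjusted p was 0.0612, 0.0698, 0.0726 and 0.0700 without control 1, 2, 3 and 4, and 0.0632 and 0.0540 without knock-down 1 and 2. In those fits 16 to 34 genes were called in all, against 49 over all 12 libraries. With single libraries left out the log2 fold change of DEPTOR stayed between 0.80 and 0.99. Its edgeR adjusted p was 0.0663 with counts summed by title number and 0.0698 when the title's letter was a covariate. It was 0.277 within letter D and 0.934 within letter E. The log2 fold change stayed between 0.61 and 1.03 over all alternatives.

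The 5 genes with the next smallest p had values on both sides of 0, and none passed in edgeR over the 12 libraries with no covariate. PIK3CB, a catalytic subunit of PI3 kinase, had 43.6 ± 5.67 CPM in the controls and 30.4 ± 3.42 CPM after knock-down (SD, n = 6 each), with no overlap. Its log2 fold change was -0.52 (edgeR adjusted p = 0.0640, DESeq2 adjusted p = 0.000871). It also passed in edgeR with the marker covariate (adjusted p = 0.0255), in limma-voom with quality weights (adjusted p = 0.0221) and with title number as a random effect (adjusted p = 0.0460). GRB10, an adaptor that binds and restrains IGF1R and INSR, had 34.5 ± 3.499 and 22.7 ± 5.90 CPM, with a log2 fold change of -0.60 (edgeR adjusted p = 0.140, DESeq2 adjusted p = 0.0222). The highest knock-down of GRB10, at 29.9 CPM, just passed the lowest control, at 29.7 CPM. GSK3B, a kinase that AKT switches off, had 79.8 ± 7.22 and 67.3 ± 4.06 CPM (log2 fold change -0.25, edgeR adjusted p = 0.266). PDPK1, which activates AKT, had 24.3 ± 2.77 and 20.3 ± 2.29 CPM (log2 fold change -0.26, edgeR adjusted p = 0.345). SH2B2, an adaptor of the insulin receptor, had 5.48 ± 0.793 and 7.32 ± 1.06 CPM (log2 fold change 0.42, edgeR adjusted p = 0.279).

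**Figure D5:**
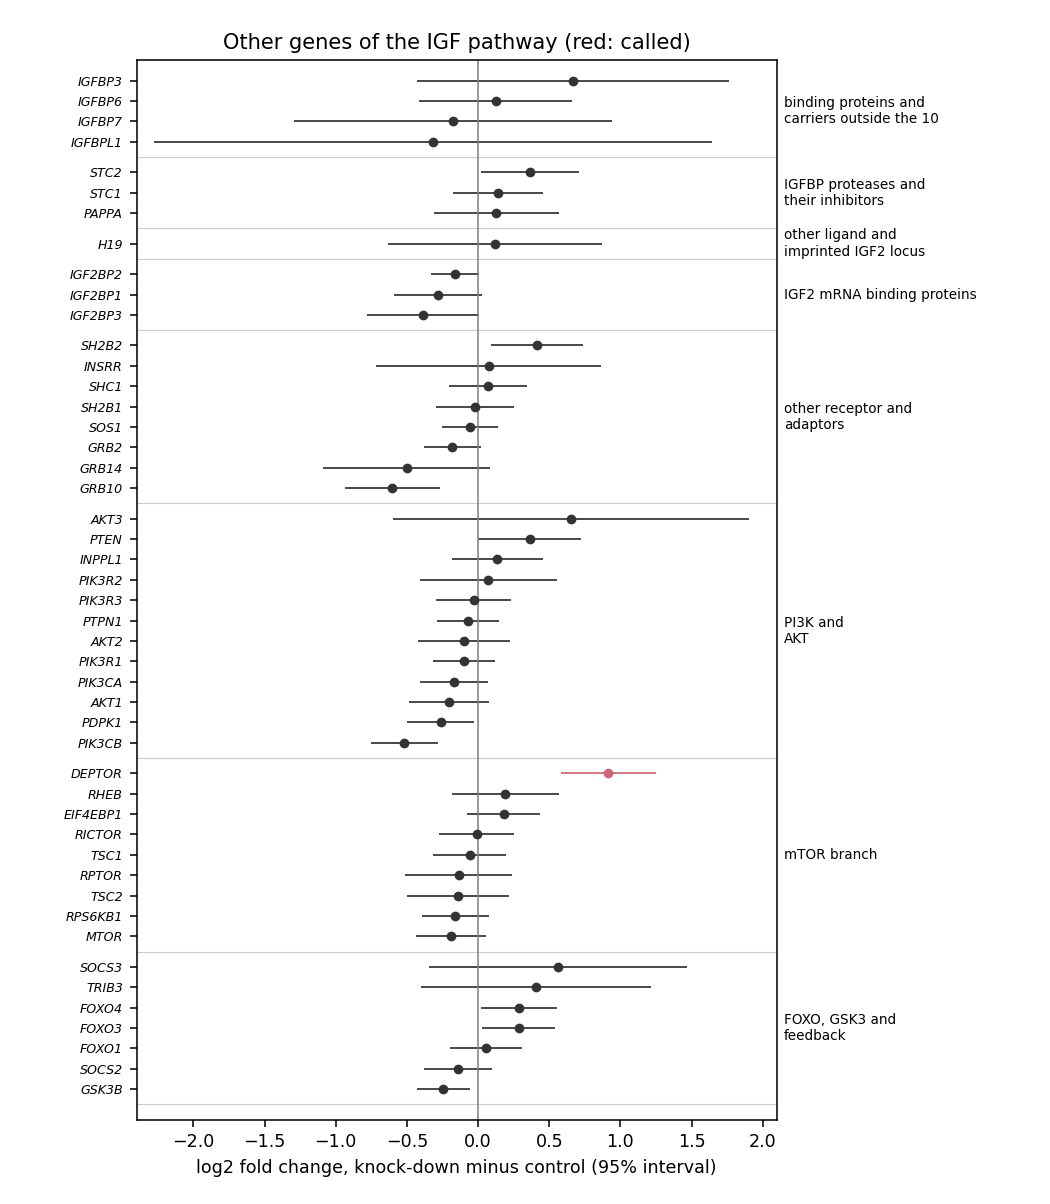
Log2 fold change of knock-down over control with 95% intervals for the 47 tested genes of the wider pathway, ordered by fold change within each role. DEPTOR (red) is the 1 gene called by edgeR, at 0.92, and GRB10 and PIK3CB have the lowest values, at -0.60 and -0.52.

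The remaining pathway genes are given by role. All of IGF2BP1, IGF2BP2 and IGF2BP3, which bind the IGF2 mRNA among others, had values under 0, at -0.28, -0.16 and -0.39 (edgeR adjusted p from 0.408 to 0.434). IGF2BP1 was abundant, at 367.9 ± 60.6 CPM in the controls (SD, n = 6). Among PI3 kinase and AKT genes 4 of 12 were above 0, in the mTOR branch 3 of 9, among the other receptor and the adaptors 3 of 8, and among FOXO factors, GSK3B and feedback genes 5 of 7. IGFBP3 had 4.11 ± 1.71 CPM in the controls and 6.53 ± 6.498 CPM after knock-down, with a log2 fold change of 0.67 (edgeR adjusted p = 0.619) and its highest value, 18.9 CPM, in knock-down 4. Its median was 4.34 CPM in the controls and lower, 3.45 CPM, after knock-down, so the higher mean rested on knock-down 4. No fit of IGFBP3 without that library is given here. The proteases that free IGF from binding proteins and their inhibitors, PAPPA, STC1 and STC2, had values from 0.13 to 0.36 with edgeR adjusted p from 0.364 to 0.839. H19, the noncoding RNA beside IGF2, had 0.12 (edgeR adjusted p = 0.921). IGFBP1, INS, INS-IGF2 and IGF2-AS were at 0 counts in all 12 libraries.

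For the members other than IGF2, 1 other gene with the most similar pattern was named by the highest Pearson r of log2 CPM over the 12 libraries, among 12421 protein-coding genes, as a description with no test. For the binding proteins that varied most, these were ADPRH for IGFBP5 (r = 0.978) and DDAH2 for IGFBP2 (r = 0.973). RERE was closest to IGF2R (0.974) and SLC35E2B to IRS1 (0.966). For the other members r was lower, with H2AFY2 for IGF1 (0.904), PCNX1 for IGF1R (0.915), DUSP1 for IRS2 (0.917), RARRES2 for IGFBP4 (0.882) and SLC2A1 for INSR (0.818).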

How the data were processed

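RNA-seq was measured in 12 tumour libraries, grouped by their genotype label into 6 control and 6 RING1B knock-down libraries. The authors deposited 1 table of raw counts per gene. The submitters' processing notes list STAR 2.6.0a, featureCounts, FastQC, R 3.6.0 and limma 3.40.2, and the hg38 build. The sources used here do not give the strand setting, the counting of reads with several alignments or the treatment of host reads. The exons of all members matched GENCODE 29.

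Genes were filtered with filterByExpr, which left 16519 of 57169 genes with at least 99.7% of each library's counts, and tested with edgeR 4.0.16 (TMM, robust quasi-likelihood F test, no covariate) in R 4.3.3. P-values were adjusted by the Benjamini-Hochberg method over all tested genes, and calls were made under 0.05. Log2 CPM used a prior count of 2. Pair correlations used 100000 resamples over 12 libraries, all orders for groups of 6. Alternatives used DESeq2 1.42.0, limma 3.58.1 and sva 3.50.0, other scalings and filters, title number and letter, marker levels, and each library left out. The script was tested on simulated counts. Libraries held 23859184 to 26678325 counts, a depth that limits IGF2 most among the members. No pair of libraries agreed within sampling noise (the lowest chi-square per degree of freedom was 12.0, between controls 1 and 2, which share a title number). None was therefore merged as a repeat deposit, which does not show that they are independent.

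The members and all lists were chosen with earlier results of these data known. The text names RNF2, the members, the 6 tested pathway genes with the smallest p, and for each member the gene with the highest r among those with a mean of at least 1 CPM. That gene for IGF2 is not reported here. Pathway genes outside this rule were named by role after their values were seen. The alternative fits of the pairs were added after seeing the data.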

Additional observations from a re-analysis of the deposited data

Results flagged for a closer look

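In 34 groups of 6 libraries, the levels of RNF2, the members and the 6 pathway genes with the smallest p were checked for a library that stands apart, where the gap of an end value to its nearest neighbour exceeds 0.625 of the group's range. Chance gives about 1 in 20 groups, and 2 groups were found. IGFBP5 in knock-down 4 had 30.8 CPM, with the next knock-down at 12.2 CPM, a gap of 0.745 of the range. IRS2 in knock-down 5 had 216.9 CPM, with the next at 255.7 CPM, a gap of 0.681 of the range.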

How the results depend on the processing

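Over 28 alternatives, 264 of 280 member values kept their direction and side of the threshold, 15 changed sign and 1, IGFBP2 with the fibroblast and pericyte markers as a covariate, became a call, so that 1 member was called there and 0 under the other 27. The members' median stayed between 0.06 and 0.22. The changed signs were these. INSR was -0.047 with limma-voom quality weights, -0.030 without control 6, knock-down 4 and knock-down 5, and -0.0002 within letter D. IGFBP4 was -0.057 with the letter as a covariate, -0.041 within letter D and -0.093 within letter E, and ran from -0.043 to 0.19 as single libraries were left out. IGF2 was -0.23 with 1 surrogate variable and -0.14 to 0.54 as single libraries were left out. IRS1 was -0.051 without the 3 libraries, -0.20 within letter D and -0.047 to 0.13 as single libraries were left out. IGF2R was 0.20 within letter E. The r of IGF1R with INSR was 0.70 within letter E and 0.056 without its 2 farthest libraries, that of IRS1 with IRS2 was -0.027 within letter E and -0.20 over title-number means, and that of IGFBP2 with IGFBP5 over title-number means was 0.78 and missed the threshold. RNF2 kept its sign throughout and missed the threshold within letters D and E (edgeR adjusted p 0.135 and 0.553). Each letter holds 6 libraries, split unevenly between the groups. The cause was not tested.

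The count of called genes, 49, moved more: 351 with DESeq2, 500 with quality weights, 91 with title number as a random effect, 7 with counts summed by title number, 28 with the letter as a covariate, 293 with the marker covariate, 108 with 1 surrogate variable, 108 without the 3 libraries, 6 within letter D, and 0 by edgeR within letter E, where 903 genes had an unadjusted p under 0.05. Leaving out single libraries gave 16 (without control 3 or knock-down 1) to 79 (without knock-down 4). Counts of 13 to 107 per library limit IGF2. The replicate numbers were given in accession order. No paired analysis was possible because the labels give the groups no shared replicate numbers.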
